A study of Homo sapiens with 8 samples.

Results

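The proteins of the mitochondrial ribosome are encoded in the nucleus by genes named MRPL for the large subunit and MRPS for the small subunit. Members were chosen by symbol alone, as every listed gene named MRPL or MRPS with a number and an optional letter. This gave 77 of the 25369 genes in the table, 48 MRPL and 29 MRPS. The family itself was selected on its RPKM values, whose difference between the treatment groups was already known, so its counts and adjusted p-values for that contrast are given as a description, and nothing about the family as a whole is supported by them. RNA was sequenced from EPC2-hTERT cells, a human esophageal epithelial line immortalized with telomerase reverse transcriptase, listed as wild type, and so representing 1 line only. All cultures were grown on permeable membranes at an air-liquid interface, with 5 days of 1.8 mM CaCl2 and then 4 days of exposure to air. One group of 4 libraries received DMSO vehicle, and the other group of 4 received 1 mM dimethyloxalylglycine (DMOG) for 18 h. Whether the replicates were separate cultures is not stated in the labels, and the p-values therefore cover only the spread among these libraries, which may be technical.

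The mitochondrial ribosome translates the few mRNAs of the mitochondrial genome, all of which encode subunits of the oxidative phosphorylation complexes. Its small subunit binds the mRNA and decodes it, and its large subunit joins the amino acids and releases the chain through an exit tunnel toward the inner membrane. Many of its proteins descend from bacterial ribosomal proteins and others are found only in mitochondria. DMOG competes with 2-oxoglutarate at dioxygenases, among them the prolyl hydroxylases that target the hypoxia-inducible factors (HIF) for breakdown, and is used to mimic part of the response to low oxygen.

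Library totals were 31245695 to 39931833 reads, of which 0.118% to 0.230% fell in the 77 members. One library stood apart from its group. EGLN3, a HIF target that encodes a prolyl hydroxylase, was at 119, 35.6 and 334 RPKM (read counts corrected for gene length and library depth) in DMOG replicates 1, 3 and 4, and at 9.93 RPKM in the library labelled DMOG replicate 2, against 5.46 to 13.2 RPKM in the vehicle libraries. CA9, the HIF target carbonic anhydrase IX, was at 2.56 RPKM in that library, at 9.97 to 57.5 RPKM in the other DMOG libraries and at 0.129 to 1.29 RPKM with vehicle. By chi-square on the reads recovered from RPKM, that library was closer to vehicle replicate 1 (24.9 per degree of freedom) than any vehicle libraries were to each other (43.7 for the closest pair). The authors' own deposited comparison rests on replicates 1, 3 and 4 of each group, and no source used here gives the reason. Counts, fold changes and tests below are therefore those of these 6 libraries unless all 8 are named, and the 8-library values are set beside them. All 6 squamous markers were expressed in every library, with a summed level of 10060 to 18110 RPKM with vehicle and 14010 to 14400 RPKM with DMOG, nearly all of it the keratins KRT5, KRT14, KRT13 and KRT4. TP63 was at 54.9 to 64.6 RPKM with vehicle and 36.5 to 57.7 RPKM with DMOG. By contrast, DCN (fibroblasts), CDH5 (endothelium), CDX2 and VIL1 (columnar epithelium) were listed at 0 in all 8, while the third columnar marker, KRT8, was at 23.2 to 41.1 RPKM with vehicle and 21.6 to 44.2 RPKM with DMOG. The summed level of the 4 fibroblast markers, nearly all of it COL1A1, was 8.71 to 14.1 RPKM with vehicle and 19.0 to 32.0 RPKM with DMOG, and that of the 3 leukocyte markers, nearly all of it CD68, was 42.7 to 73.4 and 60.9 to 93.1 RPKM. Their part in the results was not tested. In bulk RNA, fewer cells of a type and less of an RNA per cell cannot be told apart.

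Most mitochondrial ribosomal protein mRNAs were lower in the DMOG libraries of the 6-library comparison. A gene was called lower or higher when limma, fitted on log2 of scaled RPKM plus 1 over 11122 genes, gave a Benjamini-Hochberg adjusted p under 0.05. Scaled RPKM are RPKM divided by a median-ratio factor per library. All 77 members had an RPKM of at least 1 in at least 4 libraries and were tested. Of them, 46 were called lower, 1 was called higher (MRPL49) and 30 were not called. Of all genes tested, 16.1% were called lower and 13.7% higher. The median log2 fold change, DMOG minus vehicle, over the 77 members was -0.45, with quartiles of -0.72 and -0.26 and a range of -1.41 to 0.97. The fold change was below 0 for 69 members, and for 5562 of the 11122 genes tested. Of the members called lower, 7 were at least 2-fold lower by this fold change, as were 333 of the 1792 genes called lower. The count of members lower depended on single libraries: it was 14, 21 and 12 without vehicle replicates 1, 3 and 4, and 12, 51 and 36 without DMOG replicates 1, 3 and 4, while the count over all genes went from 1792 to 539, 1018, 586, 607, 2527 and 1545. Members higher numbered 4 without DMOG replicate 3 (20% of all genes) and 2 with the replicate number as a block (19.6% of all genes). On RPKM as deposited, 66 members were called lower and 0 higher, where 34.5% of all genes were called lower and 6.13% higher. That scale moved the median over all genes to -0.26 and the median over the members to -0.73.

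With all 8 libraries, limma called 0 members and 0% of all genes in either direction, and limma-voom on recovered reads called 0 members as well. At an unadjusted p under 0.05, limma gave 43 members lower and 1 higher, and 16.3% and 14% of all genes. The lowest adjusted p among the members was 0.118 and their median log2 fold change was -0.34. Without the library labelled DMOG replicate 2, 49 members were called lower and 3 higher, where 17.7% and 15.5% of all genes were. The 4 DMOG libraries lay wholly below the 4 vehicle libraries for 25 members and wholly above them for 0, on scaled RPKM, and this was so for 7.33% and 5.04% of all genes. On RPKM as deposited the members counted this way were 33 and 0, beside 12.8% and 2.27% of all genes. In the authors' deposited table, 48 members were lower and 3 higher at an adjusted p under 0.05 (17.6% and 18.8% of its 13424 genes), the 3 being MRPS6, MRPL49 and MRPL44.

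**Figure D1:**
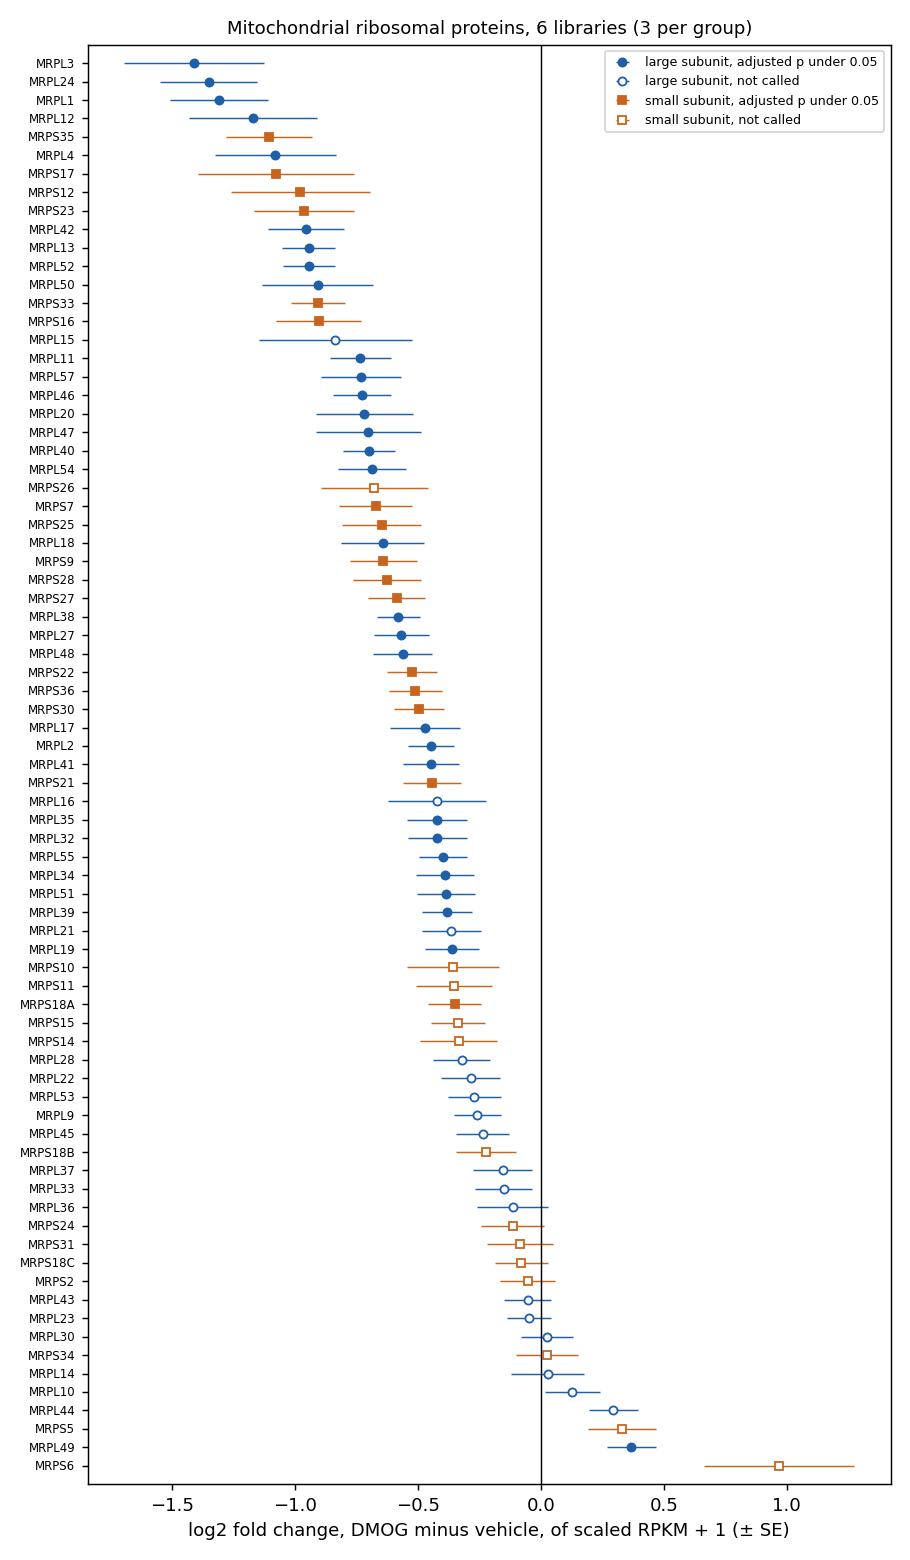
The log2 fold change of each of the 77 members, DMOG minus vehicle, in the 6-library comparison (horizontal axis, of scaled RPKM plus 1, bars show the standard error), ranked from MRPL3 at -1.41 to MRPS6 at 0.97. Filled symbols mark the 47 members with a limma adjusted p under 0.05, of which all but MRPL49 lie left of 0, and large (circles) and small (squares) subunit genes are interleaved.

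The promoters of 4 members are shown because these genes stand at different places in that ranking: MRPL3 and MRPL24 had the lowest fold changes, MRPS6 had the highest, and MRPL36 (log2 fold change -0.11), which holds the most of the motifs searched among these 4, was not called. Each is the 250 bases before the gene's annotated start, 5′ to 3′ on the gene's strand, from RefSeq on GRCh38.p14. Capitals mark the letters of any motif searched, on either strand.
MRPL3: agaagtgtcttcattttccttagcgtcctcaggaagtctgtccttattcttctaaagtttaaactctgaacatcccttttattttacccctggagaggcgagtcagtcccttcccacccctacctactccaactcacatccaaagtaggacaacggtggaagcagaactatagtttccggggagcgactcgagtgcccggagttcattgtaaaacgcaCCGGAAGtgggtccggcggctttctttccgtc
MRPL24: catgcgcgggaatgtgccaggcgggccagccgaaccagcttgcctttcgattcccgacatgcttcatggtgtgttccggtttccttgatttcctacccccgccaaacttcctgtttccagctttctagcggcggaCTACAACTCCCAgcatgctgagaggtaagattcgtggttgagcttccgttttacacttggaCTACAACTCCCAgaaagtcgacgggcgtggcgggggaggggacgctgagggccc
MRPL36: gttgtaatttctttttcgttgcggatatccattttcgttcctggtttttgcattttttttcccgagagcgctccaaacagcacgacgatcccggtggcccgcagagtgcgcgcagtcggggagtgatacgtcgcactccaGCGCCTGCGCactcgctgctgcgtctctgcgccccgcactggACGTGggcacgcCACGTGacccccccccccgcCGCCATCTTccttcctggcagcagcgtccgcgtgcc
MRPS6: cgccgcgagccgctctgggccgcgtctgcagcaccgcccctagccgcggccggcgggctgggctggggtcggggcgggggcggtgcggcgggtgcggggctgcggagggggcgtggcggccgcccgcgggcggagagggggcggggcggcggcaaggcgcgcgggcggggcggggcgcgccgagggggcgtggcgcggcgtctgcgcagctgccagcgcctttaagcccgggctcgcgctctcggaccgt
These are chr3:131502972-131503221 (minus strand), chr1:156741089-156741338 (minus), chr5:1799838-1800087 (minus) and chr21:34073328-34073577 (plus). The MRPL3 promoter holds the core letters bound by ETS factors such as GABPA, CCGGAAG, at positions -32 to -26 from the start. The MRPL24 promoter holds a ZNF143 element at -115 to -104 and again at -54 to -43. MRPL36 holds an NRF1 element at -110 to -101, a YY1 element, AAGATGGCG, on the other strand at -36 to -28, an E-box, CACGTG, at -56 to -51, and apart from it a HIF core, ACGTG, at -68 to -64. None of the motifs searched was found in the MRPS6 window, which shows only that those letters are not in it.

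A promoter window of 250 bases before the start and 50 after it was matched for 68 of the 77 members and for 80.5% of the genes tested. The ETS letters were found in 28 of the 68, or 41.2%, against 10.7% of all 27305 promoters and 20.5% of those of genes tested. The YY1 letters were found in 13, or 19.1%, against 1.85% and 4.44%. The NRF1 letters were found in 8, or 11.8%, against 6.28% and 12.3%, and so at about the share of other genes tested. Within the family, the ETS letters were in 17 of the 41 matched members called lower and in 11 of the 27 others, and the YY1 letters in 8 and 5. The ZNF143 letters, searched for after the promoters had been seen, were in 3 members, or 4.41%, against 0.791% of all promoters and 1.78% of those of genes tested, and all 3 were called lower. The E-box, the letters bound by MYC and related factors, was in 6 members (8.82%, against 7.43% of all promoters and 10.5% of those of genes tested), of which 0 were among the 41 called lower and 6 among the 27 others: MRPL22, MRPL36, MRPL37, MRPL45, MRPL49 and MRPS18C. The HIF core, ACGTG, which every E-box contains, was in 19 members (27.9%, against 21.6% of all promoters and 27.4% of those of genes tested), 8 of the 41 and 11 of the 27. The composite element of ATF4, TGATGNAA, was in 1 member (1.47%, against 3.67% and 1.63%). A letter match is not a bound site, and no difference between these shares was tested.

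The lowest fold changes belonged to proteins of the large subunit with bacterial homologues. MRPL3 (chr3:131181045-131221860 on hg19) encodes uL3m, which reaches toward the peptidyl transferase centre. Its level was 36.5, 35.2, 38.1 and 37.3 RPKM in vehicle replicates 1 to 4 and 11.2, 29.5, 17.6 and 6.31 RPKM in DMOG replicates 1 to 4. Every DMOG library was below every vehicle library, with replicate 4 lowest and replicate 2 nearest to vehicle. Over the 6 libraries it fell from 37.3 ± 0.810 to 11.7 ± 5.66 RPKM (SD, n = 3), a log2 fold change of -1.41 ± 0.28 (SE) with a limma adjusted p of 0.0141. MRPL24 (chr1:156707094-156710923) encodes uL24m, a protein near the exit tunnel. Its vehicle libraries had 36.2, 30.9, 37.4 and 35.3 RPKM, and its DMOG libraries 11.4, 33.1, 15.3 and 7.59 RPKM. DMOG replicate 2 lay inside the vehicle range and the other 3 DMOG libraries were below it. Over the 6 libraries its log2 fold change was -1.35 ± 0.20 (SE), with a limma adjusted p of 0.00713. MRPL1 (chr4:78783805-78873944), for the uL1m protein of the stalk beside the exit site for tRNA, had 14.7, 10.6, 13.8 and 14.6 RPKM with vehicle and 4.59, 10.98, 5.80 and 2.66 RPKM with DMOG. Here again DMOG replicate 2 overlapped vehicle on the deposited levels and the other 3 did not, whereas on scaled RPKM the groups did not overlap. Its log2 fold change was -1.31 ± 0.20 (SE) and its limma adjusted p 0.00784.

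MRPL12 and MRPL4 completed the large subunit genes called at least 2-fold lower on scaled RPKM plus 1, a scale that understates changes of low genes. MRPL12 (chr17:79670400-79674556) encodes bL12m of the flexible stalk that recruits translation factors. Its level was 37.6, 32.1, 34.6 and 38.1 RPKM with vehicle and 12.5, 31.1, 20.3 and 8.04 RPKM with DMOG, and the groups did not overlap, although DMOG replicate 2 was just under vehicle replicate 2. Its log2 fold change was -1.17 ± 0.26 (SE), with a limma adjusted p of 0.0184. MRPL10, which encodes the uL10m protein that anchors this stalk, had 15.4, 13.4, 14.8 and 15.3 RPKM with vehicle and 14.6, 13.7, 12.2 and 13.8 RPKM with DMOG. Its groups overlapped, and its log2 fold change of 0.13 was not called (limma adjusted p 0.401). MRPL4 (chr19:10362640-10370736), for the tunnel protein uL4m, had 21.3, 18.3, 16.97 and 18.0 RPKM with vehicle and 6.94, 17.2, 10.2 and 4.14 RPKM with DMOG. Only replicate 2 of its DMOG libraries reached the vehicle range, and the log2 fold change was -1.08 (limma adjusted p 0.0204). Of these 5 genes, MRPL24 and MRPL1 were called in every fit that left out 1 of the 6 libraries. MRPL3 lost its call without either of vehicle replicates 1 and 4 or without DMOG replicate 1, with limma adjusted p of 0.0547, 0.0524 and 0.0555. MRPL12 and MRPL4 lost theirs without any of vehicle replicates 1, 3 and 4 or without DMOG replicate 1, with limma adjusted p of 0.0516 to 0.0693 and of 0.0521 to 0.0775. In the 8-library comparison the log2 fold changes of MRPL3, MRPL24, MRPL1, MRPL12 and MRPL4 were -1.13, -1.003, -0.98, -0.90 and -0.84, and none was called (limma adjusted p 0.118 to 0.119).

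In the small subunit the lowest fold changes were those of MRPS35, MRPS17 and MRPS12. MRPS35 (chr12:27863706-27909237) encodes mS35, which has no bacterial counterpart. It had 28.0, 26.2, 32.3 and 29.1 RPKM with vehicle and 9.74, 24.7, 14.7 and 8.59 RPKM with DMOG. All 4 DMOG libraries were below all vehicle libraries, replicate 2 by the least. The log2 fold change was -1.10 ± 0.18 (SE) with a limma adjusted p of 0.00824, and the call held in every fit without 1 of the 6 libraries. MRPS17 (chr7:56019611-56023033, uS17m) had 25.5, 23.6, 28.1 and 21.3 RPKM with vehicle and 10.7, 21.3, 14.1 and 4.81 RPKM with DMOG, so that vehicle replicate 4 and DMOG replicate 2 were nearly level. Its log2 fold change was -1.08 ± 0.32 (SE), with a limma adjusted p of 0.0421. MRPS12 (chr19:39421348-39423659) encodes uS12m of the decoding centre, whose bacterial counterpart is a site of streptomycin resistance. It had 16.2, 15.8, 17.1 and 14.8 RPKM with vehicle and 7.22, 14.0, 9.35 and 3.34 RPKM with DMOG. The 4 DMOG libraries were below the 4 vehicle libraries on these deposited levels, again with replicate 2 close to them, and on scaled RPKM the groups overlapped. For MRPS12 the log2 fold change was -0.98 ± 0.28 (SE), with a limma adjusted p of 0.0402. MRPS17 and MRPS12 lost their calls without any of vehicle replicates 1, 3 and 4 or without DMOG replicate 1 (limma adjusted p of 0.0821 to 0.117 and of 0.0885 to 0.11) and with no filter on low values (0.0841 and 0.0802). MRPS35, MRPS17 and MRPS12 were at -0.86, -0.86 and -0.79 with all 8 libraries, and none was called (limma adjusted p 0.118 to 0.124). MRPS12 overlaps SARS2 on the opposite strand, and no source used here says whether the counting used strand.

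**Figure D2:**
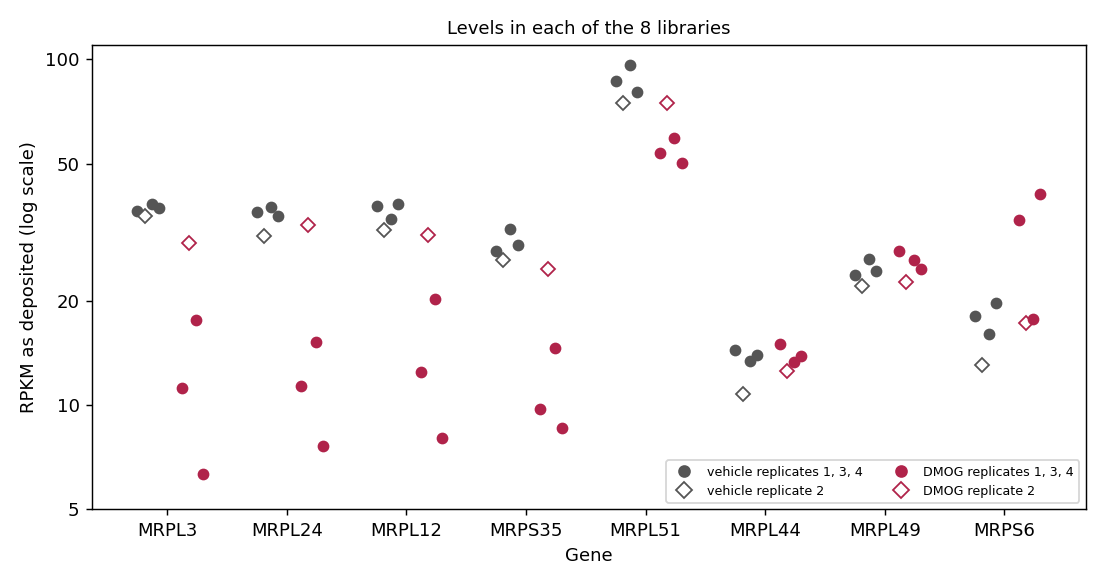
RPKM as deposited (log scale) of 8 members in each of the 8 libraries, vehicle in grey and DMOG in red, with replicate 2 of each group as open diamonds. For MRPL3, MRPL24, MRPL12 and MRPS35 the 3 filled DMOG points lie below all vehicle points and the open DMOG diamond lies beside vehicle, whereas for MRPS6 DMOG replicates 1 and 4 are above all other libraries at 34.4 and 40.8 RPKM.

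A set of 11 members was called lower with all 6 libraries and in each of the 6 fits that left out 1 of them, as were 4.27% of all genes tested. They were MRPL1, MRPL11, MRPL13, MRPL24, MRPL38, MRPL40, MRPL42, MRPL46, MRPL52, MRPS33 and MRPS35. The lowest adjusted p-values of the family were among them, at 0.00428 for MRPL52, 0.00441 for MRPL13 and 0.00481 for MRPS33 (limma). MRPL52, for the mitochondria-specific protein mL52, had 20.7, 18.0, 19.8 and 20.2 RPKM with vehicle and 7.71, 17.2, 9.48 and 7.28 RPKM with DMOG. Its groups did not overlap, and its log2 fold change of -0.94 ± 0.11 (SE) was smaller than that of MRPL3 with less spread among DMOG replicates 1, 3 and 4. MRPL40, for mL40, had 30.4, 28.7, 29.2 and 28.2 RPKM with vehicle and 15.7, 24.1, 15.3 and 12.1 RPKM with DMOG. All DMOG libraries were below all vehicle libraries, and the log2 fold change was -0.70 (limma adjusted p 0.00764). MRPL38, for mL38, fell by 0.58 on the log2 scale with the smallest standard error of the family, 0.0885 (limma adjusted p 0.00764). MRPL52, MRPL40 and MRPL38 were at -0.73, -0.60 and -0.46 with all 8 libraries, each with a limma adjusted p of 0.118. The genes of this paragraph with no rule-based place among the extremes were singled out after their values had been seen.

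Few members were higher. MRPS6 (chr21:35445823-35515334), which encodes bS6m of the small subunit, had 18.1, 13.1, 16.1 and 19.8 RPKM with vehicle and 34.4, 17.3, 17.8 and 40.8 RPKM with DMOG. DMOG replicates 1 and 4 were above every vehicle library, and replicates 2 and 3 were inside the vehicle range. The log2 fold change over the 6 libraries was 0.97 ± 0.30 (SE), with a limma adjusted p of 0.0511, so it was not called. It was called with the replicate number as a block (limma adjusted p 0.0223) and without DMOG replicate 3 (0.00172). With upper-quartile factors it was also called, at a log2 fold change of 1.00 and a limma adjusted p just under 0.05. The authors' deposited table gives it a log2 fold change of 1.11 and an adjusted p of 0.00356. MRPS6 shares its strand and part of its span with SLC5A3, whose level was 0.804 to 2.34 RPKM in the vehicle libraries and 2.28, 1.64, 1.79 and 5.09 RPKM in DMOG replicates 1 to 4, so reads of the 2 genes may have been divided between them. MRPL49 (chr11:64889655-64894841), for the mitochondria-specific protein mL49, was the 1 member called higher. It had 23.8, 22.1, 26.4 and 24.4 RPKM with vehicle and 27.9, 22.7, 26.3 and 24.7 RPKM with DMOG, and on this deposited scale the groups overlapped. After scaling its log2 fold change was 0.37 ± 0.10 (SE), with a limma adjusted p of 0.0342. On RPKM as deposited the adjusted p was 0.564, and the call was also lost with no filter (0.0525) and without either of vehicle replicates 1 and 4 or without DMOG replicate 1 (0.140, 0.127 and 0.116). MRPL49 overlaps FAU and SYVN1 on the opposite strand. FAU encodes a cytosolic ribosomal protein and was at 410 RPKM with vehicle and 362 RPKM with DMOG on average. Over all 8 libraries MRPS6 was at 0.81 and MRPL49 at 0.27, and neither was called (limma adjusted p 0.135 and 0.179).

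The other members near the top of the ranking moved by less than the spread among libraries or missed the threshold. MRPS5, for uS5m at the mRNA entry, had 19.1, 15.01, 17.9 and 18.0 RPKM with vehicle and 18.2, 17.7, 17.1 and 21.8 RPKM with DMOG, and a log2 fold change of 0.33 (limma adjusted p 0.104, or 0.0391 without DMOG replicate 3). MRPL44, for mL44, which carries a ribonuclease III-like fold, had 14.4, 10.8, 13.4 and 14.0 RPKM with vehicle and 15.1, 12.6, 13.3 and 13.9 RPKM with DMOG, and a log2 fold change of 0.30 (limma adjusted p 0.0615, or 0.0259 without DMOG replicate 3). The deposited levels of both genes overlapped between the groups, and only scaling set the 6 libraries apart. MRPL14, MRPL30 and MRPS34 each had a log2 fold change of 0.03 after scaling, and together with MRPL10 their sign reversed to between -0.27 and -0.15 on RPKM as deposited. MRPL14 (uL14m) had 28.6, 21.3, 25.7 and 29.1 RPKM with vehicle and 25.7, 27.0, 27.1 and 17.3 RPKM with DMOG, with only DMOG replicate 4 below the vehicle range. MRPS5 was at 0.29 and MRPL44 at 0.26 with all 8 libraries (limma adjusted p 0.177 and 0.191).

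**Figure D3:**
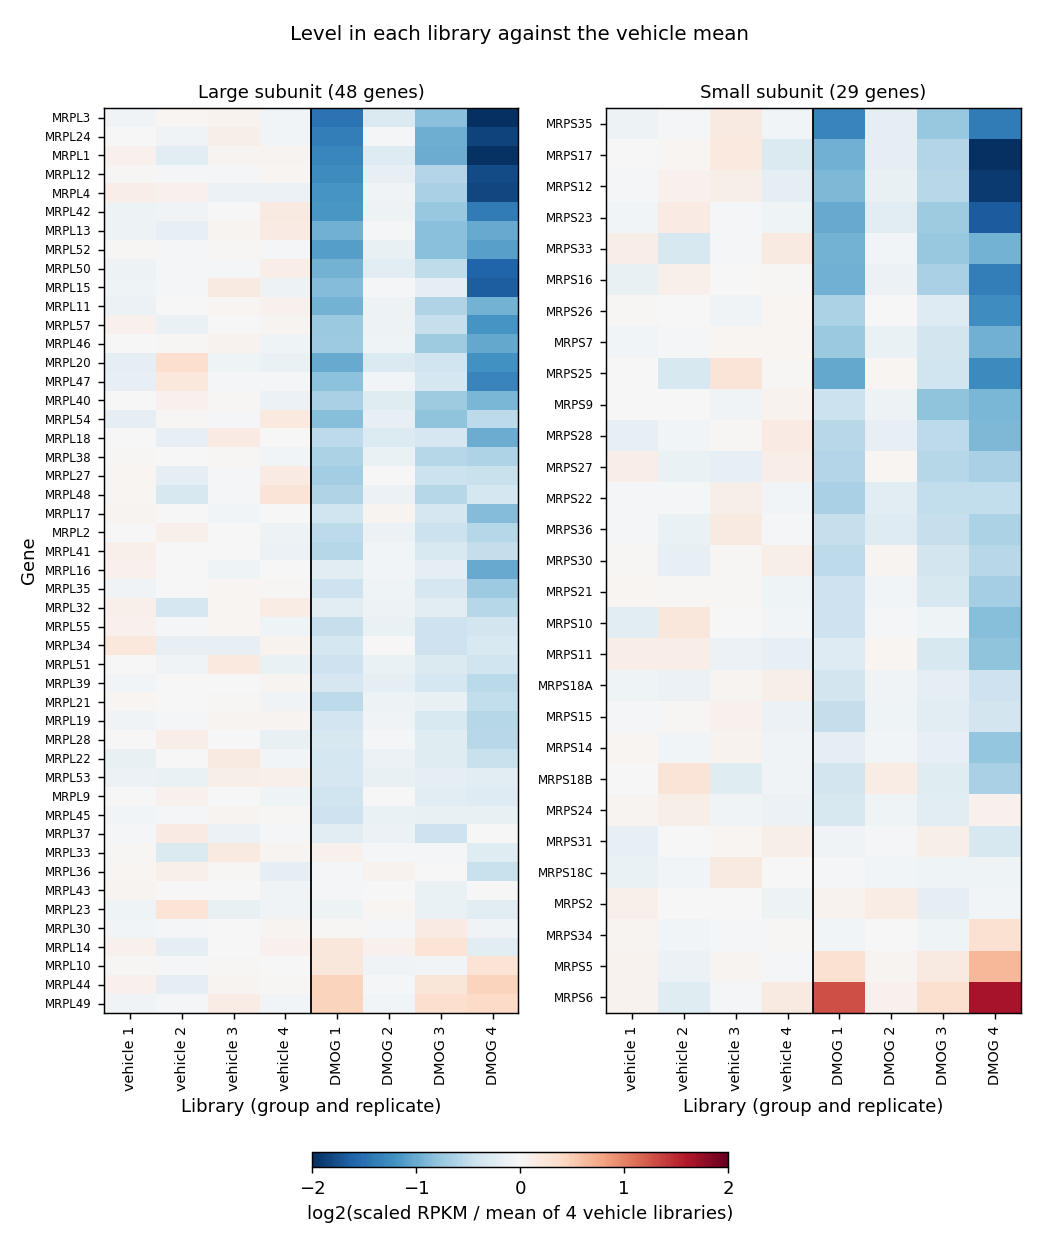
The log2 ratio of scaled RPKM to the mean of the 4 vehicle libraries, for 48 large (left) and 29 small (right) subunit genes in rows, ordered by fold change, and the 8 libraries in columns. The columns of DMOG replicates 1, 3 and 4 are blue for most genes, that of DMOG replicate 2 is close to the vehicle columns, and the strongest red is MRPS6 in DMOG replicates 1 and 4.

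Levels within the family spanned a wide range, and fold changes did not follow them. RPKM are divided by the listed gene length, so a comparison of levels between genes depends on that length. It was 604 to 965 bases for the 3 highest members and 2237 to 4566 bases for the 3 lowest, MRPS18B aside. The highest mean vehicle levels were those of MRPL51 (84.7 ± 9.20 RPKM, SD, n = 4), MRPL41 (68.8 ± 5.61) and MRPS15 (51.5 ± 2.52), and these 3 did not overlap in any vehicle library except that vehicle replicate 1 of MRPL41, at 76.7 RPKM, exceeded vehicle replicate 2 of MRPL51, at 74.9 RPKM. MRPL51 and MRPL41 encode mitochondria-specific proteins of the large subunit and MRPS15 the bacterial-type protein uS15m of the small subunit. MRPL51 had 53.6, 74.95, 59.2 and 50.1 RPKM in DMOG replicates 1 to 4, of which replicate 2 alone reached the vehicle range. On scaled RPKM its groups did not overlap, and its log2 fold change was -0.39 (limma adjusted p 0.0474). MRPL41 had 39.2, 64.8, 47.6 and 38.7 RPKM with DMOG, with the same order of libraries, and a log2 fold change of -0.45 (limma adjusted p 0.0278). MRPS15 had 31.4, 47.4, 37.8 and 31.3 RPKM with DMOG, all below its vehicle range, although its groups overlapped on scaled RPKM. Its log2 fold change of -0.34 was not called (limma adjusted p 0.0551, or 0.0343 with the replicate block and 0.0267 without DMOG replicate 3). Leaving out any 1 library other than DMOG replicate 3 ended the calls of MRPL51 (limma adjusted p 0.0714 to 0.139) and MRPL41 (0.0510 to 0.109), and so did the lack of a filter for MRPL51 (0.0726). Over all 8 libraries the log2 fold changes of MRPL51, MRPL41 and MRPS15 were -0.30, -0.34 and -0.28, and none was called (limma adjusted p 0.131 to 0.144).

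At the low end were MRPS25, MRPL22 and MRPS14, leaving aside MRPS18B. MRPS25, for mS25, had 2.97, 2.13, 3.40 and 3.05 RPKM with vehicle and 1.20, 2.87, 1.87 and 0.932 RPKM with DMOG. Its DMOG replicate 2 was inside the vehicle range and the other 3 below it. Its log2 fold change was -0.65 (limma adjusted p 0.0254, and 0.0750 to 0.0906 without any of vehicle replicates 1, 3 and 4 or without DMOG replicate 1). MRPL22, for uL22m of the exit tunnel, had 5.63, 5.62, 6.77 and 6.09 RPKM with vehicle and 3.97, 5.45, 4.38 and 3.48 RPKM with DMOG, and was not called after scaling (log2 fold change -0.29, limma adjusted p 0.108). MRPS14, for uS14m, had 6.93, 5.78, 6.75 and 6.48 RPKM with vehicle and 4.78, 6.07, 4.93 and 2.96 RPKM with DMOG, and was not called either (-0.33, adjusted p 0.138). Both passed the threshold on RPKM as deposited (limma adjusted p 0.0153 and 0.0322). MRPS25, MRPL22 and MRPS14 were at -0.42, -0.24 and -0.25 with all 8 libraries (limma adjusted p 0.169, 0.186 and 0.243). Over 76 members without MRPS18B, Spearman's rho of the log2 fold change with the vehicle level was -0.05. The median log2 fold change was -0.48 for the 38 members with higher levels and -0.43 for the 38 with lower levels. These points share the same 6 libraries.

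The 3 MRPS18 genes are paralogs related to 1 bacterial protein, and their products sit in different places. MRPS18A, in structures a large subunit protein (mL66), had 36.1, 31.7, 37.8 and 42.02 RPKM with vehicle and 24.1, 34.4, 27.8 and 21.5 RPKM with DMOG. Its DMOG replicate 2 was inside the vehicle range, the log2 fold change was -0.35 and the limma adjusted p 0.0490, a call lost with upper-quartile scaling (0.0542), with limma-voom (0.0563), with no filter (0.0740) and without any library other than DMOG replicate 3 (0.0940 to 0.157). MRPS18C, the small subunit protein bS18m, had 11.2, 10.6, 13.3 and 12.4 RPKM with vehicle and 9.86, 11.2, 9.63 and 8.74 RPKM with DMOG, and a log2 fold change of -0.08 (limma adjusted p 0.601). MRPS18B, the small subunit protein mS40, had 3.07, 3.25, 2.46 and 2.93 RPKM with vehicle and 1.92, 3.17, 2.13 and 1.47 RPKM with DMOG, and a log2 fold change of -0.22 (limma adjusted p 0.198). Its groups overlapped through DMOG replicate 2. MRPS18B and MRPS18C passed on RPKM as deposited only (limma adjusted p 0.0431 and 0.0397). MRPS18A, MRPS18B and MRPS18C were at -0.25, -0.18 and -0.06 with all 8 libraries, and none was called. MRPS18B is listed at 7 positions, on chromosome 6 and 6 alternative haplotypes, and its RPKM was computed with their summed length of 10738 bases. Per 1534 bases of a single position its mean levels would be 20.5 RPKM with vehicle and 15.2 RPKM with DMOG, so its place at the bottom of the deposited levels follows from that length.

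MRPS30 and MRPS36 carry a small subunit symbol without a place in that subunit. MRPS30 is mL65 of the large subunit. It had 15.1, 11.8, 14.3 and 16.2 RPKM with vehicle and 8.38, 14.5, 9.54 and 7.58 RPKM with DMOG, with DMOG replicate 2 inside the vehicle range and the other 3 below it. The log2 fold change was -0.49 (limma adjusted p 0.0140). MRPS36 is now described as KGD4, a subunit of the 2-oxoglutarate dehydrogenase complex of the citric acid cycle. It had 12.7, 10.6, 14.0 and 12.96 RPKM with vehicle and 7.71, 10.3, 7.84 and 6.31 RPKM with DMOG, all 4 DMOG libraries below vehicle, and a log2 fold change of -0.51 (limma adjusted p 0.0159). MRPS30 lost its call without either of vehicle replicates 1 and 4 or without DMOG replicate 1 (limma adjusted p 0.0610, 0.0641 and 0.0611), and MRPS36 without any of vehicle replicates 1, 3 and 4 or without DMOG replicate 1 (0.0544 to 0.0589). Over all 8 libraries MRPS30 and MRPS36 were at -0.32 and -0.41 (limma adjusted p 0.168 and 0.118).

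The large and small subunits differed little. By symbol, 30 of the 48 large subunit genes were called lower, 1 higher and 17 not, with a median log2 fold change of -0.43. Of the 29 small subunit genes, 16 were called lower, 0 higher and 13 not, with a median of -0.49. The shares called lower were 62.5% and 55.2%, beside 16.1% of all genes tested. Without vehicle replicates 1, 3 or 4 the large and small subunit had 10 and 4, 14 and 7, or 9 and 3 genes lower. Of all genes tested, 4.85%, 9.15% or 5.27% were lower in these fits. Without DMOG replicates 1, 3 or 4 the subunits had 9 and 3, 32 and 19, or 21 and 15 genes lower, beside 5.46%, 22.7% or 13.9% of all genes. With genes placed by structure, 32 of 50 large and 13 of 26 small subunit genes were called lower, with medians of -0.43 and -0.48. The medians stood in the same order on RPKM as deposited, at -0.72 and -0.77, and with all 8 libraries they were -0.34 and -0.35. Of the members called and at least 2-fold lower, 5 were large and 2 small subunit genes, beside 333 of the 11122 genes tested. The highest fold change was 0.37 in the large subunit and 0.97, that of MRPS6, in the small one. Among 46 proteins with a bacterial homologue 25 were called lower, with a median of -0.42, and among 30 mitochondria-specific proteins 20 were called lower and 1 higher, with a median of -0.54. MRPS18A (mL66) and MRPS18B (mS40) were counted as mitochondria-specific, although they are related to a bacterial protein. No difference between these groups of genes was tested.

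The summed level of each subunit was clearly lower in DMOG replicates 1, 3 and 4 and close to vehicle in replicate 2. The large subunit genes summed to 1178, 1054, 1154 and 1184 RPKM in vehicle replicates 1 to 4 and to 689, 1042, 770 and 592 RPKM in DMOG replicates 1 to 4. The small subunit genes summed to 592, 534, 588 and 603 RPKM and to 375, 537, 403 and 339 RPKM. DMOG replicate 2 reached the lower end of the vehicle range with the small subunit and was just under it with the large one, and the other DMOG libraries were well below it. After scaling, all 4 DMOG libraries were below the vehicle range for both subunits, replicate 2 at 984 and 508 against vehicle minima of 1041 and 526. The small subunit made up 33.5% to 33.8% of the summed level in the vehicle libraries and 35.2%, 34.0%, 34.4% and 36.4% in DMOG replicates 1 to 4. These shares stood above the vehicle range in all 4 DMOG libraries. MRPS6, which is among the genes summed, was at 13.1 to 19.8 RPKM with vehicle. It was at 34.4, 17.3, 17.8 and 40.8 RPKM in DMOG replicates 1 to 4. The higher shares of replicates 1 and 4 therefore rest largely on this gene.

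The DMOG libraries also differed among themselves in an order that most members shared. The median over the members of the log2 ratio of scaled RPKM to the vehicle mean was -0.46, -0.07, -0.34 and -0.62 in DMOG replicates 1 to 4, and -0.02 to 0.02 in the vehicle libraries. For 41 of the 77 members the 4 DMOG libraries ranked replicate 4, 1, 3 and 2 from lowest to highest. EGLN3 ranked them in the opposite order, at 334, 119, 35.6 and 9.93 RPKM. DMOG replicate 4 had the lowest deposited level of all 8 libraries for 61 members, and the lowest scaled level for 49. DMOG replicate 2 was inside the scaled range of the vehicle libraries for 50 members, below it for 26 and above it for 1. Its total of reads lay inside the range of the others, and DMOG replicate 4 had the fewest reads of the 8 libraries. These counts of members have no share over all genes beside them, which was not computed. By chi-square over all genes tested, DMOG replicates 4, 1, 3 and 2 stood in that order of distance from every vehicle library. The distance was 424 to 501 per degree of freedom for replicate 4 and 24.9 to 82.3 for replicate 2. The order is thus not shown to be particular to the members. Whether depth, or how far a culture responded to DMOG, takes part in this order was not tested.

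**Figure D4:**
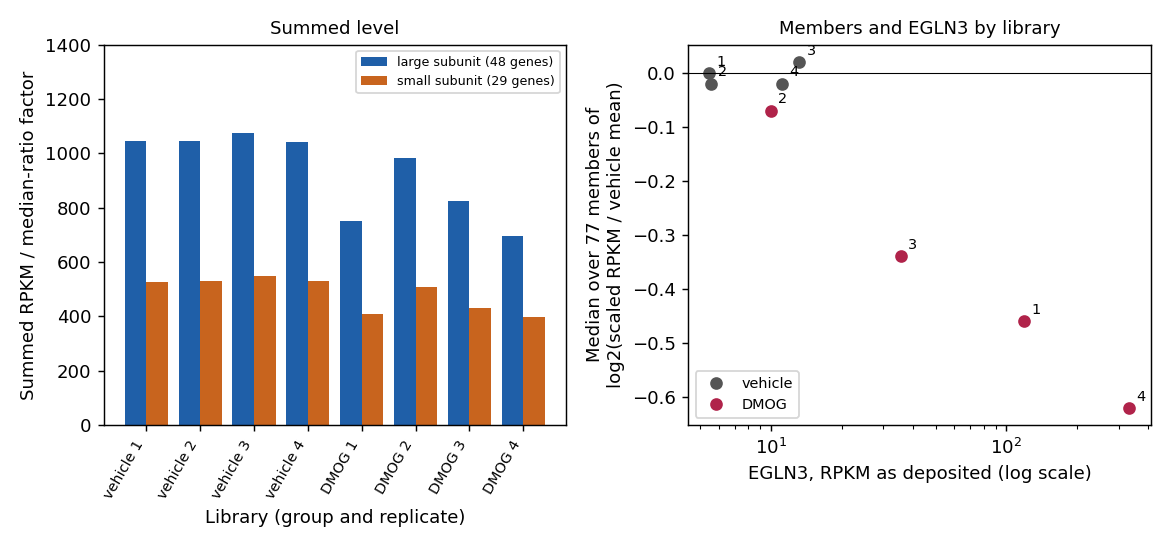
Left, summed scaled RPKM of the large (blue) and small (orange) subunit genes in each library. Right, the median over 77 members of the log2 ratio of scaled RPKM to the vehicle mean against EGLN3 in RPKM (log scale), 1 point per library with its replicate number: the 4 DMOG points run from -0.07 for replicate 2 to -0.62 for replicate 4 as EGLN3 goes from 9.93 to 334 RPKM.

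Cytosolic ribosomal proteins and complex I were set beside the family as the ribosome of the cytosol and as a complex that takes up products of mitochondrial translation. Of 77 cytosolic ribosomal protein genes tested, 0 were called lower and 2 higher by limma, beside 16.1% and 13.7% of all genes. On RPKM as deposited 0 and 0 were called, beside 34.5% and 6.13%. At an unadjusted p under 0.05 these numbers were 0 and 26, where 23.3% of all genes were lower and 21.6% higher. Without DMOG replicate 3, 62 of the cytosolic genes were called higher, where 20% of all genes were. Without any other of the 6 libraries 0 of them were, where 3.41% to 11.8% of all genes were. Their median log2 fold change over the 6 libraries was 0.30 after scaling and -0.01 on RPKM as deposited, so their direction depends on the scaling, and the members' median was below theirs on both scales. Over all 8 libraries their median was 0.21, with 0 called. Of 38 nuclear subunits of complex I, which joins several mitochondrially encoded subunits in the respiratory chain, 17 were called lower and 0 higher. Of all genes tested, 16.1% were called lower and 13.7% higher. The median of complex I was -0.33 after scaling and -0.61 as deposited. Without any of vehicle replicates 1, 3 and 4 or without DMOG replicate 1, 4 to 7 complex I genes were lower, beside 4.85% to 9.15% of all genes. Without DMOG replicate 3, 21 were lower (22.7% of all genes), and without DMOG replicate 4, 14 were (13.9%). On RPKM as deposited, 34 of the 38 were called lower and 0 higher, beside 34.5% and 6.13% of all genes. With all 8 libraries 0 were called, with a median of -0.26. At an unadjusted limma p under 0.05, 20 were then lower and 0 higher, beside 16.3% and 14% of all genes. All 3 groups of genes were measured in the same libraries and the differences between them were not tested.

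**Figure D5:**
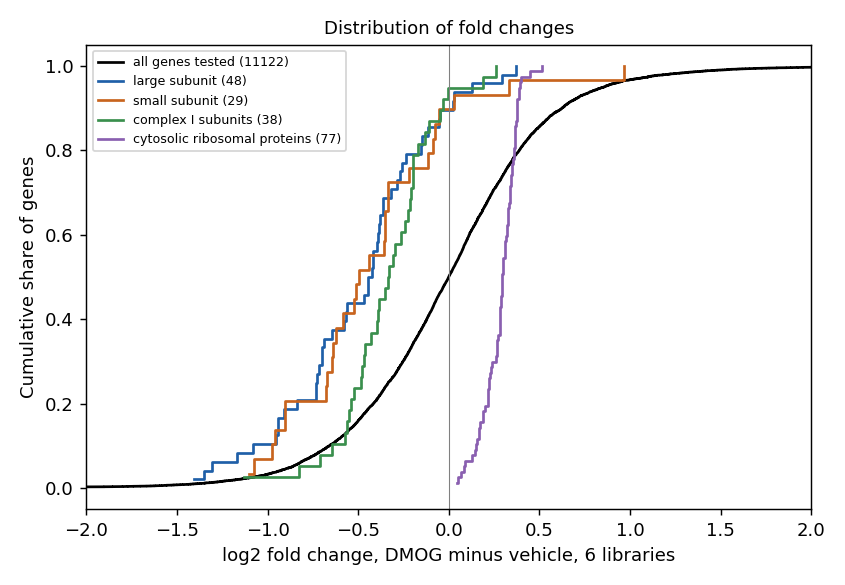
Cumulative share of genes (vertical axis) by log2 fold change, DMOG minus vehicle, in the 6-library comparison (horizontal axis, cut at -2 and 2). The curves of the large and small subunits run together with medians of -0.43 and -0.49, complex I follows at -0.33, and cytosolic ribosomal proteins lie to the right at 0.30, a position that moves to -0.01 without scaling.

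Genes of the same pathway outside the family were counted from lists. Of all genes tested, 16.1% were called lower and 13.7% higher. Without vehicle replicates 1, 3 and 4, 4.85%, 9.15% and 5.27% of all genes were lower. Without DMOG replicates 1, 3 and 4, these shares were 5.46%, 22.7% and 13.9%. Of 6 mitochondrial ribosomal proteins under other symbols, 3 were called lower and 0 higher, and 1 was lower without any of vehicle replicates 1, 3 and 4 or without DMOG replicate 1. GADD45GIP1, the large subunit protein mL64, had 61.4, 60.2, 59.3 and 58.9 RPKM with vehicle and 26.4, 54.7, 31.1 and 24.4 RPKM with DMOG, with no overlap and a log2 fold change of -0.82 (limma adjusted p 0.00512). The small subunit proteins PTCD3 and DAP3 had log2 fold changes of -0.55 and -0.51 (limma adjusted p 0.0251 and 0.0283). Those of ICT1, a rescue factor built into the large subunit, CHCHD1 and AURKAIP1 were -0.35, -0.21 and -0.21 and were not called (0.0654, 0.185 and 0.139), although all 3 passed on RPKM as deposited (0.0128, 0.0225 and 0.0121) and CHCHD1 also without DMOG replicate 3 (0.0383). PTCD3 and DAP3 lost their calls without any of vehicle replicates 1, 3 and 4 or without DMOG replicate 1 (limma adjusted p of 0.0627 to 0.0899 and of 0.0699 to 0.101), and DAP3 also without DMOG replicate 4 (0.0533) and with no filter (0.0521). In the 8-library comparison GADD45GIP1 was at -0.66 (limma adjusted p 0.118), the median of the 6 genes was -0.32 and 0 were called.

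Of 14 mitochondrial translation factors, 7 were called lower and 1 higher (16.1% and 13.7% of all genes), with a median log2 fold change of -0.40. Without any of those 4 libraries 2 to 4 were lower, beside 4.85% to 9.15% of all genes. GFM1, the elongation factor that moves the ribosome along the mRNA, had 13.6, 15.9, 14.5 and 15.6 RPKM with vehicle and 3.97, 11.8, 7.09 and 2.33 RPKM with DMOG, with no overlap and a log2 fold change of -1.34 (limma adjusted p 0.0155, and 0.055 to 0.0615 without either of vehicle replicates 1 and 4 or without DMOG replicate 1). The initiation factor MTIF2 and the elongation factor TUFM, which delivers tRNA, had log2 fold changes of -0.80 and -0.66 (limma adjusted p 0.00909 and 0.00793), and both calls held without each library in turn. The initiation factor MTIF3 was the 1 called higher, with 21.7, 17.01, 20.1 and 22.0 RPKM with vehicle and 24.5, 22.8, 20.9 and 23.9 RPKM with DMOG. These deposited levels overlap, and its log2 fold change of 0.40 had a limma adjusted p of 0.0350 that became 0.417 on RPKM as deposited, 0.0573 with no filter and 0.0606 to 0.115 without any library other than DMOG replicate 3. With all 8 libraries the median of the list was -0.25, GFM1 was at -1.12 and MTIF3 at 0.39, and 0 were called (lowest limma adjusted p 0.118).

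Of 26 assembly factors of the mitochondrial ribosome, 7 (26.9%) were called lower and 0 higher, with a median of -0.29, beside 16.1% and 13.7% of all genes. Without any of those 4 libraries 1 or 2 were lower, beside 4.85% to 9.15% of all genes. Without DMOG replicate 3, 12 were lower, beside 22.7% of all genes. The lowest were the GTPase MTG1 (log2 fold change -1.06, limma adjusted p 0.0194), MPV17L2 (-1.0, 0.0449) and the pseudouridine synthase TRUB2 (-0.93, 0.00886). TRUB2 was called without each library in turn, whereas MTG1 and MPV17L2 were not called without any of vehicle replicates 1, 3 and 4 or without DMOG replicate 1 (limma adjusted p of 0.0575 to 0.0682 and of 0.0703 to 0.131). MPV17L2 also missed the threshold with a pseudocount of 0.1 (0.0599) and with no filter (0.0872). Of 23 genes for mitochondrial transcription and RNA handling, 10 were called lower and 2 higher (16.1% and 13.7% of all genes), with a median of -0.54. Without any of those 4 libraries 1 to 6 were lower, and without DMOG replicate 3, 17 were (4.85% to 9.15% and 22.7% of all genes). The RNA-degrading enzyme PNPT1 had a log2 fold change of -1.35 (limma adjusted p 0.0158, and 0.0591 to 0.0593 without either of vehicle replicates 1 and 4 or without DMOG replicate 1). HSD17B10, a subunit of the mitochondrial RNase P, was at -1.20 (0.00713, called without each library in turn). The transcription factor TFB2M was at -0.94 (limma adjusted p 0.0444, and 0.0959 to 0.123 without any of vehicle replicates 1, 3 and 4 or without DMOG replicate 1, 0.055 with a pseudocount of 0.1 and 0.0858 with no filter). With all 8 libraries the medians of these lists were -0.26 and -0.39, and 0 genes were called.

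The 2 called higher in that list were the mitochondrial DNA polymerase POLG (log2 fold change 0.43, limma adjusted p 0.0202) and the transcription terminator MTERF (0.42, 0.0489). On RPKM as deposited neither passed (limma adjusted p 0.292 and 0.310). POLG was not called without any of vehicle replicates 1, 3 and 4 or without DMOG replicate 1 (0.0574 to 0.0891), nor MTERF without any of vehicle replicates 1, 3 and 4 or DMOG replicates 1 and 3 (0.0719 to 0.176), with a pseudocount of 0.1 (0.0502), with no filter (0.0732) or with limma-voom (0.0532). Of 10 listed regulators of nuclear genes for mitochondrial proteins, 8 passed the filter, and limma called 0 in either direction over the 6 libraries. At an unadjusted p under 0.05, 1 was lower and 1 higher, a smaller share than that of all genes tested (23.3% and 21.6%). Without DMOG replicate 3 limma called 1 lower and 2 higher, beside 22.7% and 20% of all genes. NRF1, a transcription factor for many such genes, had 2.89, 2.66, 2.93 and 3.66 RPKM with vehicle and 4.83, 3.08, 3.09 and 5.03 RPKM with DMOG, with replicates 1 and 4 above every vehicle library and a log2 fold change of 0.57 (limma adjusted p 0.0598). MYC had 113, 75.1, 39.0 and 154 RPKM with vehicle and 61.8, 95.5, 33.8 and 65.7 RPKM with DMOG, with overlapping groups and a log2 fold change of -0.46 (limma adjusted p 0.504). PPARGC1A and PPARGC1B, which encode coactivators of these factors, were under 1 RPKM in every library and were not tested.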

How the data were processed

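RNA-seq values came from 8 libraries, grouped by the treatment in the labels. The authors deposited RPKM per gene, although the table's name says raw counts. The submitters' processing notes list bcl2fastq, TopHat2 2.0.13 and Bowtie2 2.2.3.0, HTSeq 0.6.1, Picard 1.129, SAMtools 1.3.1 and FastQC 0.11.5, without roles, and name both hg19 and hg38. Positions in the table are hg19. Per the file headers, a table of the authors' own comparison holds group means (signal scale), a ratio, the log2 ratio and raw and adjusted p-values. Its means were recovered from replicates 1, 3 and 4 of each group, with 0 weight for replicate 2.

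RPKM times gene length gave whole reads for 100% of values within 0.01 reads (largest deviation 0.000322). RPKM were divided by median-ratio factors (0.858 to 1.14 for 6 libraries). Genes with RPKM of at least 1 in at least 4 libraries entered limma-trend (limma 3.58.1, R 4.3.3, robust) on log2(value + 1), which understates changes of low genes. Two-sided p-values were adjusted by Benjamini-Hochberg (threshold 0.05). The procedure was tested on simulated reads in which all libraries of a group shared the same means. That test therefore does not cover differences such as those among the DMOG libraries here. Since the table holds RPKM and not counts, no count model was used as the main test. Alternatives were RPKM as deposited, upper-quartile factors, a pseudocount of 0.1, no filter, a replicate block, limma-voom on recovered reads and leaving out each library.

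Named genes are the 8 lowest and 8 highest fold changes, the 3 highest and 3 lowest vehicle levels, the stalk, decoding and misnamed members, and up to 3 genes per direction and list, with all 6 proteins under other symbols. Members and lists were chosen with earlier results of these data known. Over the 6 libraries the deviations of same-numbered libraries correlated at 0.47, 0.40 and 0.34. The main fit left this pairing out, and the replicate block that models it was fitted as an alternative only. The labels state no shared batch. Of the members, 18 overlap another listed gene, 4 on the same strand; how strand and reads with several positions were handled is not given in the sources used. Figures were drawn with matplotlib 3.10.9.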

Additional observations from a re-analysis of the deposited data

Results flagged for a closer look

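MRPL14 was the 1 of 54 tested groups of 4 libraries with a library far from the others. Its level in DMOG replicate 4 was 17.3 RPKM, against 25.7 to 27.1 RPKM in the other DMOG libraries, a gap of 0.86 of the whole range, which is above Dixon's critical value. Chance alone gives about 1 in 20 such groups.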

How the results depend on the processing

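In the 6-library comparison, RPKM as deposited gave 3836 genes lower and 682 higher, 0 members higher, and medians of -0.73, -0.72 and -0.77 for all members, the large and the small subunit. Members higher were 2 with upper-quartile factors (15.1% of all genes), 0 with no filter (6.26% of 18880 genes) and 2 with the replicate block (19.6%). The block, fitted on the pairs of libraries that share a number, gave 51 members lower, among them all 46 of the comparison without it, where 21% of all genes were lower. Members lower were 42 with upper-quartile factors (15.2% of all genes), 42 with limma-voom (16.2%), 32 with no filter (7.72% of 18880 genes) and 46 with a pseudocount of 0.1 (15.6%), all among the 46. Leaving out 1 library at a time gave 539 to 2527 genes lower, 379 to 2224 higher, 12 to 51 members lower and 0 to 4 higher, and medians of -0.53 to -0.41 for all members, -0.50 to -0.41 for the large and -0.54 to -0.43 for the small subunit. With all 8 libraries, leaving out 1 gave 0 to 1970 genes lower, 0 to 1724 higher, 0 to 49 members lower and 0 to 3 higher, and medians of -0.44 to -0.27, -0.43 to -0.28 and -0.44 to -0.25. Only the fit without DMOG replicate 2 called any gene or member. In the 8-library comparison the replicate block called 0 members. There the deviations of same-numbered libraries correlated at 0.07, -0.02, 0.53 and 0.24 for replicates 1 to 4. The highest correlations with a library of another number were 0.22, 0.22, 0.05 and 0.10. The shared number thus stood out for replicates 3 and 4 and not for replicates 1 and 2.

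Among the named genes, signs reversed for 4. On RPKM as deposited, MRPL30, MRPS34, MRPL14 and MRPL10 were at -0.17, -0.17, -0.12 and -0.11 with 8 libraries and at -0.24, -0.27, -0.26 and -0.15 with 6. Leaving out 1 of 8 libraries moved MRPL30 between -0.02 (without DMOG replicate 3) and 0.05 and MRPS34 between -0.04 (without DMOG replicate 4) and 0.08, with MRPL30 at -0.00 without vehicle replicate 1. Leaving out 1 of 6 moved MRPL30 between -0.03 (without DMOG replicate 3) and 0.08, MRPS34 between -0.09 (without DMOG replicate 4) and 0.09, and MRPL14 between -0.07 (without DMOG replicate 3) and 0.19. The other reversals with 6 were MRPL30 at -0.01 without vehicle replicate 1, MRPS34 at -0.00 and MRPL14 at -0.01 without vehicle replicate 3, and MRPL14 at -0.04 without DMOG replicate 1. The causes were not tested. The fewest reads behind any member in any library were 88, for MRPS17 in DMOG replicate 4.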
